A study of Homo sapiens with 7 samples.

Results

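Bidirectional coding promoters are stretches of DNA where a pair of protein-coding genes start close together and are transcribed away from each other. They were defined as pairs of GENCODE genes on opposite strands of hg19, in head-to-head orientation, whose canonical transcription start sites (TSS) lie 1000 bp or less apart. The rule used the annotation only and no ChIP-seq value. It found 978 pairs with 1885 genes, which is 9.35% of the 20162 coding genes, at 908 separate loci. A gene can have more than 1 close partner, and 70 genes were in more than 1 pair. The region of a pair ran from 1 kb outside the TSS of the minus-strand gene to 1 kb outside the TSS of the plus-strand gene.

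PIXUL-ChIP-seq had been done on HCT116, a colorectal carcinoma cell line, grown to 200000 cells per well of a 96-well plate and sheared in the plate by the PIXUL sonicator. The cells carried no stated treatment or edit, and each antibody was used on a single well. Peak lists were analysed for H3K4m3, H3K9Ac, H3K4m1, H3K27m3, H3K36m3 and CTCF, with 1 library each, so no difference below has a replicate check or a test. The read depth behind the lists is unknown. Of the 7 epithelial markers set for this line, 5 had an H3K4m3 peak at the TSS, from KRT8 at a fold enrichment, the ratio of ChIP signal to the background of the peak caller over the whole peak, of 21.8 to the intestinal factor CDX2 at 31.6, and KRT20 and VIL1 had none. Of 4 markers of blood cells and fibroblasts, COL1A1 had a peak, at 9.21, while PTPRC, CD3E and VIM had none.

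Head-to-head promoters are common in mammalian genomes and are known for serving housekeeping functions such as DNA repair, mitochondrial work and protein folding. The pair shares a short nucleosome-poor stretch, usually a CpG island, from which RNA polymerase II sets out in both directions. Active promoters are marked by H3K4m3 and H3K9Ac on the nucleosomes next to the TSS, H3K4m1 typically lies at enhancers and on the shoulders of active promoters, H3K36m3 follows transcribed gene bodies, H3K27m3 marks Polycomb-silenced genes, and CTCF is a zinc finger protein that anchors chromatin loops.

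The DNA between the start sites is shown for 6 pairs whose peaks are described below. Each line gives the longest run between both TSS that holds no annotated exon, on the plus strand of hg19, so that the minus-strand gene starts to the left and the plus-strand gene to the right. Capitals mark searched motifs on either strand, which are the GC box with the letters GGGCGG, the CCAAT box, the ETS motif CCGGAAG and the TATA motif TATAAA. The first is the mitochondrial chaperonin pair HSPD1/HSPE1 at chr2:198364666-198364722, with the highest H3K36m3 among the peaks that reach a pair region. The next is SARS2/MRPS12 at chr19:39421404-39421583, with 4 CCAAT motifs and a strong CTCF peak. TK1/AFMID at chr17:76183315-76183438 holds a TATA motif. STX10/IER2 at chr19:13261198-13261224 had the widest H3K4m3 peak and ZNF829/ZNF568 at chr19:37407194-37407217 had none, and both runs hold the ETS motif. COL4A1/COL4A2 at chr13:110959505-110959604 is the basement membrane collagen pair, with no H3K4m3.
HSPD1/HSPE1: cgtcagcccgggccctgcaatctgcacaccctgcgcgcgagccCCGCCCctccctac
SARS2/MRPS12: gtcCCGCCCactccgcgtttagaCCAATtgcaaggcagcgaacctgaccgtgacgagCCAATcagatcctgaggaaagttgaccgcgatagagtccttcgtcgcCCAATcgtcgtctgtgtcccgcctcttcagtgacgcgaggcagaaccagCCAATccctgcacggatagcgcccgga
TK1/AFMID: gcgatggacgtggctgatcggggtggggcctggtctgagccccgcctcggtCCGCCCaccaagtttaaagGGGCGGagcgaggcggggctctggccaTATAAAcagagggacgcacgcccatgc
STX10/IER2: CTTCCGGtgcacatgcccCCGCCCctt
ZNF829/ZNF568: ggCCGGAAGttgagtggggccgcg
COL4A1/COL4A2: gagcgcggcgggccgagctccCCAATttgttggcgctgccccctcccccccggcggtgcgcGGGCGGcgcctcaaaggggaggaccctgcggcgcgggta

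The 2 TSS of a pair lay a median of 233 bp apart, with quartiles of 121.2 and 398.0 bp, and 621 pairs (63.5%) lay within 300 bp. The closest were ENSG00000286192 and NUDT1, which removes oxidised nucleotides, at 11 bp. A further 62 head-to-head pairs overlap at their 5′ ends and were not counted. Just inside the limit were ATP6V1G2/NFKBIL1 at 1000 bp, HNRNPA2B1/CBX3 at 999 bp and PASK/PPP1R7 at 995 bp, each with 1 H3K4m3 peak over both TSS, at fold enrichments of 6.42, 28.1 and 32.7. Just outside were ABHD14B with ABHD14A-ACY1 at 1011 bp and with ABHD14A at 1015 bp, under 1 peak of 17.3, and USH1G/OTOP2 at 1018 bp, where a peak of 11.7 lay over USH1G only.

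Pairs were on all autosomes and X. In base composition, 90.7% of the pair TSS were CpG-rich, meaning a GC content above 50% and an observed over expected CpG ratio above 0.6 in the 1 kb around the TSS. Single promoters, which are the 17297 coding genes with no other coding TSS within 1000 bp, were CpG-rich at 61.0%. Values for CpG-rich single promoters are therefore given beside those for all single promoters. Single promoters with a head-to-head lncRNA TSS within 1 kb numbered 1773, and 90.0% of them were CpG-rich. The remaining 980 coding genes had a close coding TSS in another arrangement and were in neither class.

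Nearly every bidirectional promoter carried the marks of an active promoter. Peaks were used past the limits of the study, which are a fold enrichment above 2 for H3K4m1 and H3K27m3 and above 5 for the others, each with a limit on q. The study states these limits for histone marks, and CTCF was put with the others here. Such an H3K4m3 peak lay in 938 of 978 regions (95.9%, 95% Wilson interval 94.5 to 97.0), and an H3K9Ac peak in 935 (95.6%, 94.1 to 96.7). These and all later intervals cover counting error only. Those over pair genes count both genes of a pair as independent, although most pairs share 1 H3K4m3 peak. They can therefore be too narrow. For comparison with other genes, the same window of 1 kb on either side of a single TSS was used. In this window H3K4m3 was at 95.8% of pair genes, at 54.5% of single promoters and at 59.1% of all coding genes, and H3K9Ac at 95.5%, 53.8% and 58.5%. Among CpG-rich TSS the shares were closer, with H3K4m3 at 98.2% (97.5 to 98.8) of pair genes against 80.8% (80.0 to 81.5) of single promoters. Among TSS that were not CpG-rich, 72.0% (64.9 to 78.1) of 175 pair genes had H3K4m3, against 13.3% of 6751 single promoters. Some of these pair genes have a CpG-rich partner close by, as 927 pairs had at least 1 CpG-rich TSS and 850 had both. Of the 51 pairs with no CpG-rich TSS, 22 lacked H3K4m3. Promoters with a head-to-head lncRNA lay between pair genes and single promoters, at 82.1%, and at 87.2% (85.5 to 88.8) of their CpG-rich members. Those with a coding partner farther than 1000 and up to 5000 bp away had H3K4m3 at 64.9%, but only 58.6% of them were CpG-rich, and the CpG-rich ones had it at 88.9% (85.7 to 91.5).

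The other marks divided the classes differently. H3K4m1 was in 614 regions (62.8%), and in the TSS window at 58.0% of pair genes, 47.5% of single promoters and 49.1% of all coding genes. Compared with CpG-rich single promoters, pairs had less of it past the limits, with 58.8% (56.4 to 61.1) of CpG-rich pair genes against 65.5% (64.5 to 66.4). With all deposited peaks, H3K4m1 was in the TSS window of 81.1% of pair genes and 58.5% of all single promoters. Shares for CpG-rich TSS were not computed with all deposited peaks. CTCF was in 123 regions (12.6%), at 12.3% of pair TSS windows against 13.6% of single promoters and 13.6% of all genes, and among CpG-rich TSS at 11.8% (10.4 to 13.4) against 18.3% (17.6 to 19.1). With all deposited peaks the order of CTCF was the other way, at 34.6% of pair TSS windows and 28.8% of single promoters. H3K27m3 past the limits was in 3 regions (0.307%) and at 0.265% of pair genes, with 1.36% of single promoters and 1.22% of all genes. H3K36m3 past the limits was in 7 regions (0.716%), at 0.477% of pair genes against 0.298% of all genes, and in each of the 7 it lay off both TSS. The H3K36m3 and H3K27m3 lists keep 90 and 1552 peaks past the limits, against 12749 for H3K4m3.

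**Figure D1:**
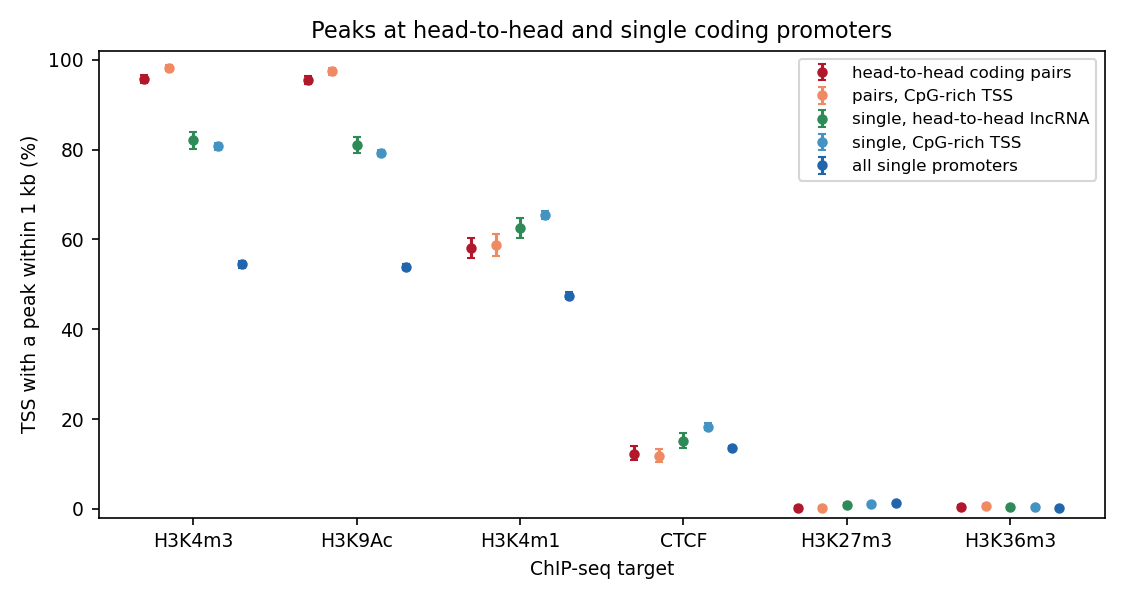
Share of TSS with a peak past the limits within 1 kb (y axis, percent) for each ChIP-seq target (x axis), with 95% Wilson intervals as bars. Pair genes sit at 95.8% for H3K4m3 and 95.5% for H3K9Ac, above the CpG-rich single promoters at 80.8% and 79.2%, while for H3K4m1 and CTCF they sit below them.

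Combinations of the 3 histone marks of promoters and enhancers were counted next. H3K4m3, H3K9Ac and H3K4m1 were together in the regions of 608 pairs (62.2%), H3K4m3 with H3K9Ac but no H3K4m1 in 323 (33.0%), and 35 pairs (3.58%) had none of the 3. A region is longer than the window of a single TSS, so the classes were compared in the TSS window. There, 57.4% of pair genes had all 3, 37.7% had H3K4m3 with H3K9Ac only, and 3.61% had none. Of single promoters, 41.0% had all 3, 11.8% had H3K4m3 with H3K9Ac only, and 39.9% had none, and of the CpG-rich ones 61.5%, 17.3% and 16.5%. These shares use peaks past the limits, and the share with H3K4m1 is higher in all deposited peaks, as given above.

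The H3K4m3 peak of a marked pair mostly spanned both TSS. Merging H3K4m3 peaks within 1000 bp of each other left their number at 12749, so no peaks in this list lay that close. Separate H3K4m3 peaks over each TSS of a pair could therefore not occur, and their absence is no finding about pairs. Each of the 938 marked pairs had exactly 1 H3K4m3 peak in the region, and in 908 (96.8%) that peak covered both TSS. In 28 it covered 1 TSS, and in BSCL2/GNG3 and NOXO1/AC005606.1 it lay off both. The stretch to be spanned is short, and single promoters give the level for comparison: of the 9420 with H3K4m3 in the window, 92.3% (91.7 to 92.8) had a peak that covered the TSS and also the point 233 bp upstream, the median distance in a pair. Averaged over the distances of all pairs, this share was 84.2%, and 86.1% for CpG-rich single promoters. H3K9Ac covered both TSS in 922 of its 935 pairs (98.6%). No such level was computed for H3K9Ac at single promoters. Its peaks there reached a median of 1121 bp upstream of the TSS, with a lower quartile of 753 bp, so the share cannot be read as particular to pairs. The share of pairs with H3K4m3 ranged from 93.1% of those within 100 bp to 98.5% of those 201 to 300 bp apart, and was 94.2% of those 501 to 1000 bp apart.

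Of the 28 pairs with H3K4m3 over 1 TSS, 7 are described here. The umami taste receptor gene TAS1R1 lay 406 bp outside the peak of the ribosome biogenesis gene NOL9, which had a fold enrichment of 34.9. The melanocyte pigment gene PMEL lay 344 bp outside the peak of the cell cycle kinase gene CDK2, at 22.8. The germ cell gene TEX14 was 133 bp outside the peak of the recombination gene RAD51C, at 19.4, and the meiotic cohesin gene STAG3 326 bp outside that of GPC2, also at 19.4. Muscle ACTN3, the complement gene C8G and the photoreceptor gene ROM1 also lay outside the peaks of their partners ZDHHC24, FBXW5 and EML3. H3K9Ac was less strict: its peak covered both TSS at PMEL/CDK2, TEX14/RAD51C, ZDHHC24/ACTN3, FBXW5/C8G and EML3/ROM1, but only NOL9 and only GPC2 at the other two. These genes were picked after their values were seen, by no fixed list. Among the other uncovered genes were the histone genes H2BC13 and H2BC14, the ciliary gene TOGARAM1, SERINC4 and THBS3.

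H3K4m3 at pairs was wide and even on both sides. The median width was 2574 bp (95% interval 2534 to 2616) against 1961 bp (1944 to 1978) at single promoters, 1988 bp at CpG-rich ones and 2281 bp (2228 to 2331) at those with a head-to-head lncRNA. Beyond each TSS the peak reached a median of 1162 bp into the gene, the same on the minus and plus sides. At single promoters it reached 1221 bp into the gene and 695 bp upstream, and at lncRNA promoters 1274 and 992 bp. The longer arm was over 2 times the shorter in 13.5% of the 908 pairs with both TSS in the peak. The shares were 25.0% of lncRNA promoters and 46.0% of single promoters. Both arms of a pair run into a gene, each from its own TSS, and leave out the stretch between the TSS. At single and lncRNA promoters an arm into the gene is set against an upstream arm. The shares therefore compare different arms, and do not by themselves show that pairs are more even. Median width ran from 2319 bp for pairs within 100 bp to 2837 bp for pairs 501 to 1000 bp apart, a span that includes the distance between the TSS itself. H3K9Ac peaks were wider, with medians of 3560 bp (3478 to 3646) at pairs and 3001 bp (2962 to 3034) at single promoters. At lncRNA promoters the median was 3365 bp (3296 to 3468). Promoters with a coding partner farther than 1000 and up to 5000 bp away had wider H3K9Ac peaks than pairs, at 4547 bp (4220 to 4832).

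**Figure D2:**
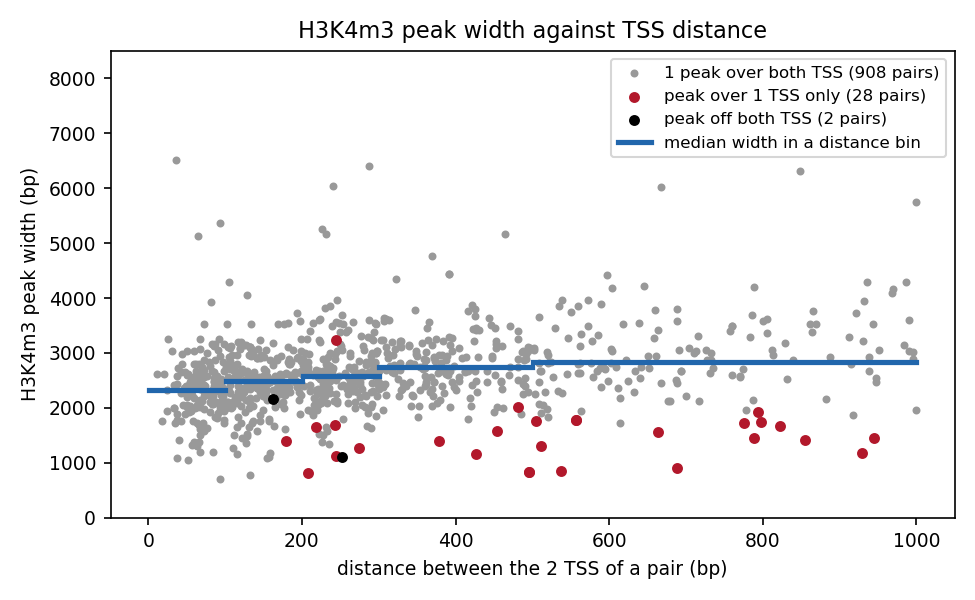
Width of the H3K4m3 peak (y axis, bp) against the distance between the TSS of a pair (x axis, bp), 1 point per pair, with blue bars for the median in each distance bin. The median runs from 2319 bp in the closest bin to 2837 bp in the farthest, and the 28 pairs with a peak over 1 TSS lie mostly below the medians.

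Fold enrichment was somewhat higher at pairs. The median for H3K4m3 was 24.8 (24.1 to 25.3), with quartiles of 19.9 and 29.6, against 22.1 (21.9 to 22.3) at single, 22.8 (22.6 to 23) at CpG-rich single and 23.7 (23.3 to 24.1) at lncRNA promoters. For H3K9Ac the medians were 14.2 (13.9 to 14.5) at pairs and 12.9 (12.8 to 13) at single promoters. That of lncRNA promoters, 13.8 (13.4 to 14.1), had an interval that overlapped the interval of pairs. The quartile ranges overlapped widely, since those of single promoters for H3K4m3 were 16.8 and 27.6. For H3K4m1 the order was the other way, with 4.41 (4.32 to 4.5) at pairs and 4.75 (4.72 to 4.78) at single promoters.

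The highest H3K4m3 was at FBXL6/SLC52A2, a ubiquitin ligase adaptor and a riboflavin transporter, with a fold enrichment of 61.7 and an H3K9Ac peak of 23.1. RNF166/CTU2 followed at 54.6 and RECQL4/LRRC14 at 54. The highest H3K9Ac was at EMC8/COX4I1, whose plus-strand gene encodes a cytochrome c oxidase subunit, at 31.1, with H3K4m3 at 51.1. The lowest H3K4m3 past the limits was at ATP6V1G2/NFKBIL1, at 6.42. Of the 20 pairs with the highest H3K4m3, 6 were on chromosome 8, 5 on 17 and 4 on 16. These chromosomes hold 28, 73 and 57 of the 978 pairs. The medians of the pairs on these chromosomes were 29.4, 27.5 and 28.9, and those of their single promoters 24.9, 24.1 and 25.0. On X the median of 21 pairs was 12.5 and that of 308 single promoters 12.8, while on the autosomes pair medians ran from 22.1 to 29.4.

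H3K4m3 and H3K9Ac covered pair regions from the centre outward, and H3K4m1 was lower at the midpoint than on either side. At the midpoint between the TSS, 94.4% of pairs were covered by H3K4m3, 94.9% by H3K9Ac and 26.2% by H3K4m1. At 1000 bp to the left and to the right H3K4m1 covered 39.5% and 38.4% of pairs, and H3K4m3 78.9% and 78.5%. At 2000 bp H3K4m3 was down to 5.11% and 4.70%, and H3K4m1 stood at 20.6% and 20.2%. The highest H3K4m1 value around pairs was 43.0%, at -1200 bp from the midpoint, on the left. Around single TSS, H3K4m1 was also higher beside the TSS than on it, with 33.8% at the TSS itself and its highest value, 38.4%, at 500 bp upstream, before 27.5% at 1000 bp upstream and 30.8% at 1000 bp downstream.

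**Figure D3:**
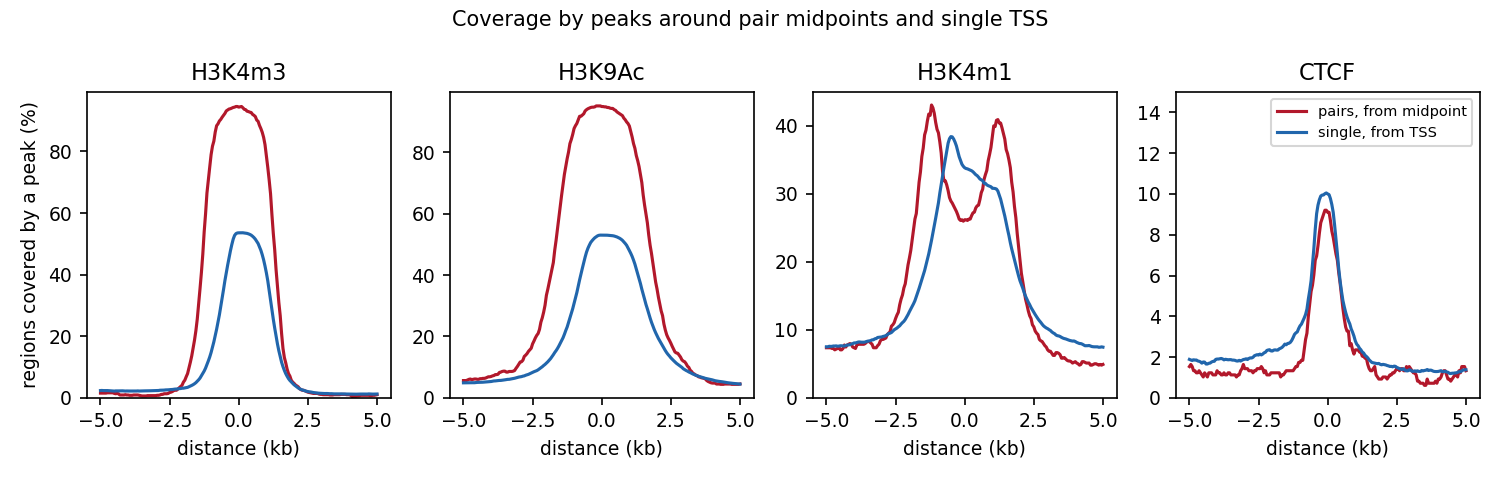
Percent of regions covered by a peak (y axis) by distance in kb (x axis) from the midpoint of a pair, with the plus-strand gene to the right, or from a single TSS in the direction of transcription. For H3K4m1 the pairs show a dip to 26.2% at the midpoint and 39.5% and 38.4% at 1 kb to the left and right, and single promoters have 33.8% at the TSS and 38.4% at their highest, 500 bp upstream.

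Of the 614 pairs with H3K4m1 in the region, the peak missed both TSS in 336 (54.7%), covered both in 242 (39.4%) and covered 1 in 36. Among pair genes with H3K4m1 in the TSS window, 45.7% (42.8 to 48.7) had their TSS inside the peak, against 71.2% (70.2 to 72.2) of single promoters, 70.4% of CpG-rich ones and 60.8% (57.9 to 63.6) of those with a head-to-head lncRNA. Taking only genes with H3K4m3 at the TSS, H3K4m1 lay over the TSS of 27.4% (25.4 to 29.5) of pair genes and 54.6% (53.6 to 55.6) of single promoters. Splitting by H3K4m3 level kept the difference: at an H3K4m3 fold enrichment of 20 to 25 the shares were 19.9% (16.5 to 23.7) of pair genes and 51.1% (48.9 to 53.2) of CpG-rich single promoters, and at 30 to 70 they were 32.5% and 55.1%. Both TSS of a pair usually lie under the same peaks and are not independent. The strongest H3K4m1 at a pair was over C17orf67/DGKE, whose plus-strand gene encodes a diacylglycerol kinase, at 12.2, and it covered both TSS.

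**Figure D4:**
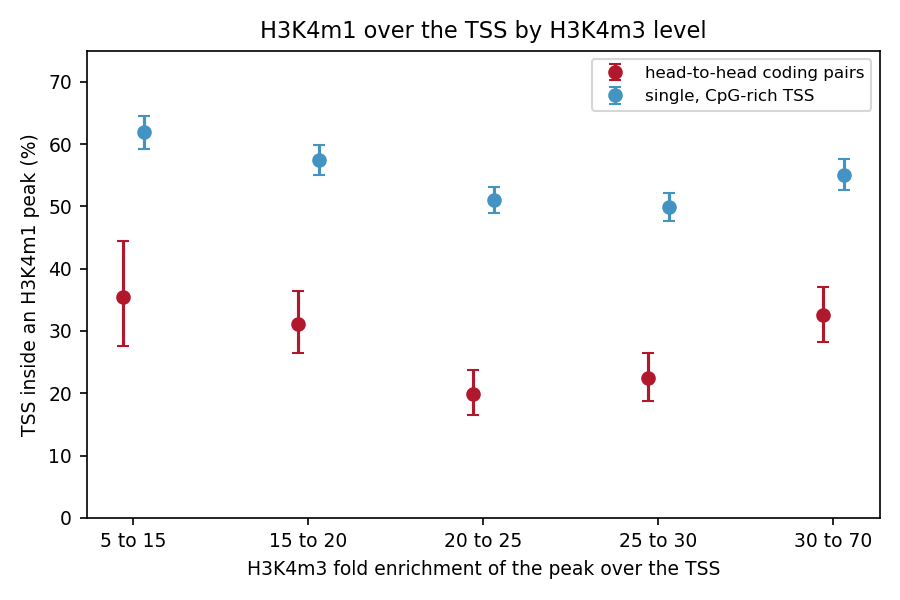
Share of TSS inside an H3K4m1 peak (y axis, percent) for TSS inside an H3K4m3 peak, binned by the fold enrichment of that H3K4m3 peak (x axis), with 95% Wilson intervals. In all 5 bins the pair genes lie below the CpG-rich single promoters, from 35.5% against 62.0% in the lowest bin to 32.5% against 55.1% in the highest.

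Textbook head-to-head pairs followed the pattern with a clear exception. Of the 13 such pairs reported, 12 had 1 H3K4m3 and 1 H3K9Ac peak over both TSS. HSPD1/HSPE1, the mitochondrial chaperonin and its cofactor, had H3K4m3 at a fold enrichment of 29.3 over 3960 bp and H3K9Ac at 20.1 over 6984 bp. PRKDC/MCM4, a repair kinase and a replicative helicase subunit, had H3K4m3 at 29.7 and H3K9Ac at 21.3. NPAT/ATM, a histone gene activator and the DNA damage kinase, had 19.9 and 14.3, and ZAR1L/BRCA2, an oocyte gene beside a recombination gene, 20.6 and 16.8. TK1/AFMID, with thymidine kinase, was lowest of the 12 at 11.9 and 7.33. The exception was COL4A1/COL4A2, with no peak of H3K4m3, H3K9Ac, H3K4m1 or CTCF past the limits and a deposited H3K27m3 peak of 3.7, which did not pass them. A second collagen pair, COL4A4/COL4A3, had H3K4m3 at 24.1 and H3K9Ac at 12.9 over both TSS.

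**Figure D5:**
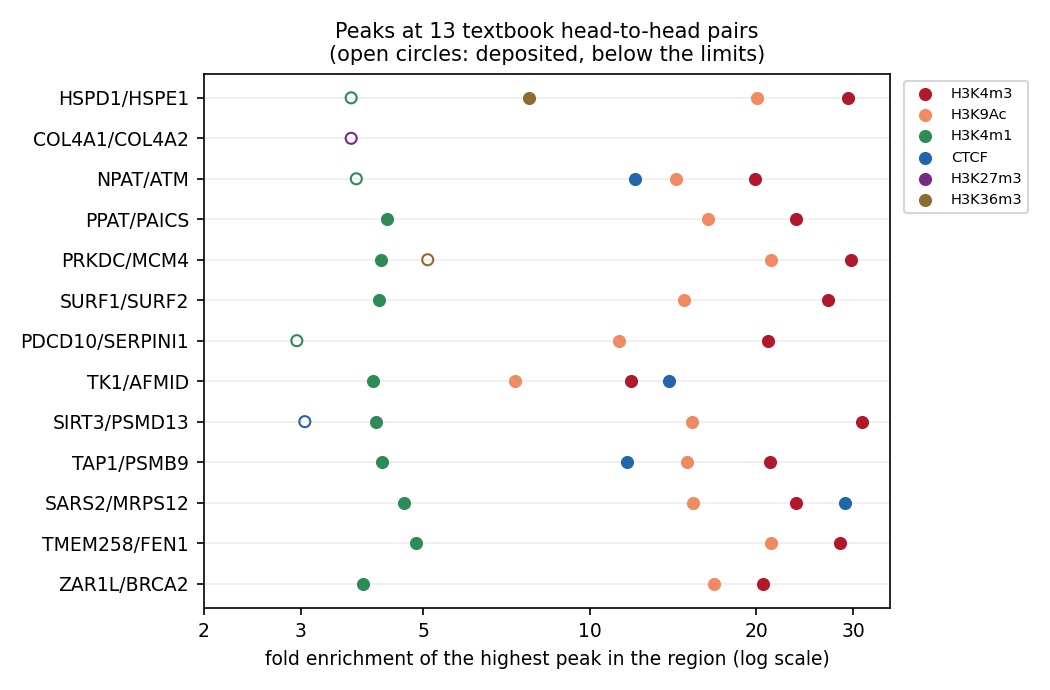
Fold enrichment of the highest peak in the region (x axis, log scale) for the 13 textbook pairs (y axis), coloured by target, with open circles for deposited peaks below the limits. In 12 pairs H3K4m3 lies between 11.9 and 31.1, and COL4A1/COL4A2 has a single open circle, H3K27m3 at 3.7.

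Among housekeeping families at bidirectional promoters, H3K4m3 was found at every pair of the 5 lists given next, a share near the 95.9% of all pairs. All 27 pairs with a mitochondrial ribosomal protein gene had H3K4m3, as did all 17 with a gene of respiratory complex I or its assembly, all 10 with a proteasome gene, all 7 with an aminoacyl-tRNA synthetase gene and all 32 of the DNA repair and replication list. That list was taken by the start of the symbol and also holds RPAP2 and MCM3AP, which are known for other work. Against 59.1% of all coding genes, members of the same families at single promoters were also mostly marked, with H3K4m3 at 49 of 49 mitochondrial ribosomal, 25 of 26 complex I, 35 of 38 proteasome, 26 of 26 synthetase and 76 of 84 repair genes. Several pairs joined members of these lists, such as MRPL47/NDUFB5 with H3K4m3 at 19.3 and ERCC8/NDUFAF2 at 16.9. Median H3K4m3 was 23.9 for the mitochondrial ribosome, 24.9 for complex I, 26.3 for the proteasome, 23.9 for the synthetases and 23.7 for repair.

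Other families each held pairs without H3K4m3, where the share over all pairs was 95.9% and most counts were small. Of 33 zinc finger (ZNF) pairs, 29 had H3K4m3, and among single ZNF promoters 298 of 440 did. Of 13 chaperonin and heat shock pairs, 11 had H3K4m3, with a median of 28.5, and at single promoters 54 of 68 genes did. The 2 without were the lens and muscle small heat shock pair CRYAB/HSPB2 and its readthrough variant. HSPA1L/HSPA1A had one of the lowest values, at 7.41. Of 11 pairs with H2A or H2B histone genes, 9 had H3K4m3, with a median of 13, and the 2 without were H2AC1/H2BC1 and H3C7/H2BC9. Single promoters of these histone genes had it in 9 of 25. Histone and HSPA1 genes have near-identical copies that can share or lose reads, so their values are uncertain. Of 3 pairs with FOX factors, FOXA1/TTC6 had H3K4m3 at 15.5 and FOXM1/RHNO1 was also marked, while FOXL2/FOXL2NB, of the ovary, was not. The wider list of developmental factors, which includes FOX, HOX and SOX genes, had H3K4m3 at 53 of 134 single promoters. Of 2 collagen pairs 1 was marked, and of 40 single collagen promoters 9 were.

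The 40 pairs without H3K4m3 included several whose genes are known for restricted expression. Among them were PLCZ1/CAPZA3 of sperm, the olfactory receptor pair OR11A1/OR2H1, the sterol transporters ABCG5/ABCG8, the dual oxidase and its maturation factor DUOX2/DUOXA2 and the cancer-testis pair MAGEA12/CSAG1. By distance, the 5 closest were DYDC1/DYDC2 at 26 bp, MAGEA12/CSAG1 at 36 bp, ZNF829/ZNF568 at 41 bp, DCST2/DCST1 at 43 bp and FAM229A/TSSK3 at 54 bp. Of the 40, 36 also lacked H3K9Ac and 34 had none of the 6 targets past the limits. H3K9Ac without H3K4m3 was at 4 pairs, among them NFKBID/HCST at 14.8, where the deposited H3K4m3 peak had 4.19. They differed from the rest in CpG content: 22 of the 51 pairs with no CpG-rich TSS lacked H3K4m3, and 18 of the 927 with at least 1 CpG-rich TSS did. Those 18 include COL4A1/COL4A2, ZNF829/ZNF568, ZNF571/ZNF540 and FOXL2/FOXL2NB. The names here other than the 5 closest were chosen after their values were seen.

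H3K27m3 was almost absent from these promoters. The 3 pairs with a peak past the limits were PLAG1/CHCHD7 at 5.13, TRPM5/KCNQ1 at 4.34 and DOCK4/ZNF277 at 4.1. In each, the H3K27m3 peak lay in the body of the minus-strand gene and off both TSS, and 1 H3K4m3 peak covered both TSS, at 17.4, 15.2 and 21.4. PLAG1, a zinc finger transcription factor gene, had a peak of 12771 bp, TRPM5, a taste cell channel, of 1295 bp and DOCK4 of 3019 bp. With all deposited peaks, 10 regions had H3K27m3, including the unmarked COL4A1/COL4A2 at 3.7 and ABCG5/ABCG8 at 2.82. In the TSS window, deposited H3K27m3 was at 0.902% of pair genes, 10.9% of single promoters and 9.60% of all coding genes. In gene bodies, deposited H3K27m3 peaks were in 6.47% (5.45 to 7.67) of pair genes, 22.5% of single genes and 20.7% of all genes. Among genes with H3K4m3 at the TSS the shares were 5.65% (4.67 to 6.81) and 10.4% (9.84 to 11.1). The peak names inside the H3K27m3 list carry another label than HCT116, so its cell source rests on the sample labels alone.

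H3K36m3 was read over gene bodies with all deposited peaks, since 90 pass the limits. At least 1 peak was in both genes of 702 pairs (71.8%, 68.9 to 74.5), in 1 gene of 212 (21.7%) and in neither of 64 (6.54%). In 82 of the 702 (11.7%) a peak touched both genes, and in 635 (90.5%) each gene had a peak that did not touch the other gene. By gene, 82.5% of pair genes had H3K36m3, against 52.8% of single genes and 56.3% of all coding genes. This difference was present at like gene length, with 79.4% against 36.1% at 1 to 10 kb and 87.3% against 64.9% at 30 to 100 kb. Among genes with H3K4m3 at the TSS the classes were close, at 85.4% (83.7 to 87.0) of pair genes and 83.5% (82.8 to 84.3) of single genes. Of the 938 pairs with H3K4m3, 700 had H3K36m3 in both genes, 204 in 1 and 34 in neither.

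Pairs with H3K4m3 over both TSS could still differ in the bodies. PDCD10, a cerebral cavernous malformation gene, had H3K36m3 at 3.5 and its partner SERPINI1, a neuronal serpin, had none. BRCA2 had 3.56 and ZAR1L none, and at TAP1/PSMB9, genes of antigen presentation, neither gene had a peak. Over whole gene bodies the highest values were 8.17 in DDX5 of DDX5/CEP95 and 7.79 in RPL4 of RPL4/ZWILCH. Among peaks that reach a pair region, the highest was at HSPD1/HSPE1, where a peak of 14683 bp and 7.76 lay in the HSPD1 body and HSPE1 had 5.26. The other regions past the limits were RECQL4/LRRC14 at 7.35, DDX51/NOC4L at 6.76, HNRNPK/RMI1 at 6.73, HNRNPA2B1/CBX3 at 6.63 and SRSF2/MFSD11 at 6.3, and the readthrough HSPE1-MOB4 shares the peak of HSPD1.

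CTCF was at a larger share of the pairs with distant TSS. It was at 9.04% (5.72 to 14.0) of pairs within 100 bp, 10.8% at 101 to 200 bp, 7.46% at 201 to 300 bp, 14.5% at 301 to 500 bp and 22.8% (17.2 to 29.7) at 501 to 1000 bp, where the region is also longest. Of the 123 pairs, 64 had both TSS inside the CTCF peak, 37 had 1 and 22 had neither. The strongest was at EML3/ROM1, at 33.5, over the EML3 TSS only, where the H3K4m3 peak also stopped 70 bp short of ROM1. SARS2/MRPS12, whose sequence is given above, had CTCF at 29 over both TSS together with H3K4m3 at 23.6. A CTCF core motif was in 7.56% (4.03 to 13.8) of the 119 CTCF peaks at pairs, 10.9% (9.68 to 12.2) of those at single promoters and 22.4% (21.9 to 22.9) of all 24536 CTCF peaks past the limits. At TPR/ODR4, a nuclear pore gene and its neighbour, a peak of 20.7 over both TSS held the core CCACTAGAGGGC at chr1:186344747-186344758 on the plus strand.

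The sequences of pair promoters also differed in motifs. The window ran from 250 bp upstream to 50 bp downstream of each TSS and was searched on both strands, and windows of a close pair overlap, so that a match can count for both genes. With a median of 233 bp between the TSS, the window of a pair gene often also holds the TSS of its partner. The window of a single promoter holds no other coding TSS. How much this adds to the motif shares of pair promoters was not tested. The ETS motif CCGGAAG was in 31.8% (29.8 to 34.0) of pair promoters, 11.9% of single promoters and 14.0% of all promoters, and among CpG-rich ones in 33.0% (30.8 to 35.2) against 16.7% (16.0 to 17.4). The NRF1 motif GCATGCGC was in 7.32%, 3.80% and 4.26%, the YY1 motif AAGATGGCG in 6.31%, 2.46% and 2.82%, and the CRE motif TGACGTCA in 4.46%, 2.46% and 2.68%, in the same order. Among CpG-rich promoters the differences were smaller, with NRF1 in 7.54% of pair and 5.46% of single promoters, YY1 in 6.55% and 3.57%, and CRE in 4.91% and 3.39%. CCAAT was in 40.9%, 35.5% and 35.9%, and in 41.1% and 34.0% of CpG-rich pair and single promoters. The GC box GGGCGG was in 73.8%, 59.5% and 61.0%, but among CpG-rich promoters in 76.7% (74.6 to 78.6) of pairs and 81.5% (80.7 to 82.2) of single promoters. The TATA motif TATAAA was in 3.82% of pair promoters, 10.6% of single and 9.81% of all, and in 3.63% (2.84 to 4.62) and 4.73% (4.34 to 5.15) of CpG-rich ones. A match describes the letters only. The unmarked ZNF829/ZNF568 and the widely marked STX10/IER2, with an H3K4m3 peak of 6508 bp, both hold the ETS motif in the runs printed above.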

How the data were processed

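PIXUL-ChIP-seq peak lists of HCT116 cells were analysed, with 1 library per target, for 6 of 7 antibodies. H3K27Ac was not analysed here. The authors aligned reads to hg19 with BWA and called broad peaks per library with MACS2 per the Methods, at a broad cutoff of 0.1. The submitters' processing notes name BWA 0.7.12, SAMtools 0.1.19 and MACS 1.4.2. In these lists, the deposited fold enrichment is a linear ratio of ChIP over the local background across the peak. The deposited −log10 of the p-value and −log10 of the q-value likewise describe whole peaks. The score the authors deposited was not used.

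Peaks past the limits of the Methods were used: q below 1e-03 and fold enrichment above 2 for H3K4m1 and H3K27m3, and q below 1e-10 and fold enrichment above 5 for the others. The Methods name no limit for CTCF, which was put with the others. TSS came from GENCODE 44 on hg19, as the canonical transcript of 19881 of 20162 coding genes and the 5′ end of the others, which touched 4 pairs. An overlap needed 1 bp. Where a region held more than 1 peak, the one with the highest fold enrichment was taken. Shares carry 95% Wilson intervals and medians 95% order-statistic intervals. Depth is unknown and can change which peaks pass. With 1 library per target no test was made.

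Named pairs were textbook pairs, families by symbol, the highest and widest peaks, the pairs nearest the distance limit, the closest without H3K4m3 and all with H3K27m3. A pair of textbook entries is not reported here, for a reason unrelated to their values, and the textbook counts cover the others. The pairs, lists and motifs were chosen with earlier results of these data known. Of 5 marker genes of other cell types, PECAM1 had no entry in the gene table used. Python 3.11.15, numpy 2.4.6, pandas 2.3.3, pyfaidx 0.9.0.4, matplotlib 3.10.9 and samtools 1.23.1 were used. The code was tested on simulated data, where 303 of 303 planted overlaps were found, and checked with bedtools 2.31.1, where 0 of 6 targets differed.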

Additional observations from a re-analysis of the deposited data

How the results depend on the processing

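No paired analysis was possible because each target has 1 library. Results were compared with their own 95% interval, and counts with a factor of 1.5; the cause of a change was not tested except where it is named. With all deposited peaks the shares of pairs were 86.6% for H3K4m1, 35.2% for CTCF, 1.02% for H3K27m3 and 10.5% for H3K36m3. With the fold enrichment limit multiplied by 1.5, H3K9Ac was at 94.0%, CTCF at 10.6% and H3K36m3 at 0.204%. At least 200 bp of overlap gave 53.3% for H3K4m1. The stretch between the TSS alone, which is shorter, gave 28.5% for H3K4m1, 10.3% for CTCF, and 0% for H3K27m3 and for H3K36m3. With the 5′ end of the gene as TSS there were 883 pairs, with H3K4m3 at 92.2%, H3K9Ac at 92.3%, CTCF at 15.5% and H3K36m3 at 0.227%, 1 H3K4m3 peak over both TSS in 89.6%, and a median fold enrichment of 23.7 and width of 2501.5 bp. At 300 bp or less there were 621 pairs by construction, with a median width of 2452 bp. H3K36m3 above 3 was in both bodies of 58.0% of pairs. Chosen after seeing the data, all deposited H3K4m1 peaks covered 32.5% of pair TSS and 39.6% of single TSS, from 26.5% and 33.8%. Also chosen then, 1 pair per locus (908) kept all 6 shares tried within their intervals. Of 30 alternatives for single promoters, 12 stayed within the interval. With 1 library per target, the variation between wells could not be measured, and peak width and low shares can depend on a depth that the lists do not give.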
